A study of Rattus norvegicus with 12 samples.

Results

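The genes described here build the contractile apparatus of skeletal muscle, handle its calcium or supply its energy. A list of 43 such genes was looked up by gene symbol among the probes of 12 one-colour arrays of rat calvaria, the flat bone of the skull vault. A gene counted as measured when a probe carrying its symbol was well above background, the scanner software's own mark, on at least 4 of the 12 arrays, and the probe with the highest mean signal stood for the gene. This left 36 of the 43 genes, among 22990 genes measured in all. Of the 36, 25 were well above background on all 12 arrays and 11 on 4 to 11 arrays.

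The rats were 10 weeks old, and bone was taken 6 h after surgery; the sources used here do not give a strain. Each group had 4 arrays. Laser samples had an 8 by 3 mm rectangle of bone removed by an Er:YAG laser (infrared light, strongly absorbed by water) in 3 strokes at an output of 127 mJ per pulse and 20 Hz. Bur samples had a defect of that area cut by a rotating bur. Control samples lost their periosteum, the membrane that covers bone, and the bone beneath was left uncut. Whether the 4 samples of each group are separate animals is not stated, so the p-values describe only how these samples vary, which may be technical. The tissue is labelled bone, and the genes here belong to muscle.

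Skeletal muscle contracts when calcium released from the sarcoplasmic reticulum binds troponin on the thin filament, tropomyosin shifts, and myosin heads of the thick filament pull on actin. Fast and slow fibres use different genes for the same part of this machine, so a myosin, a troponin subunit or a calcium pump tells which fibre type a transcript belongs to. The calvaria carries attached muscle, such as the temporalis at its side and the occipital muscles behind, which lies outside the periosteum.

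Skeletal muscle transcripts were present on every array and varied most among the control arrays. All values below are log2 signals relative to the 75th percentile of the same array, so 0 is the level of that percentile, and levels of different probes are not compared. For a summary per array, each gene was centred on its own mean over the arrays and the 36 centred values were averaged. This mean centred log2 signal was -0.61 on control 1, 2.90 on control 2, -1.43 on control 3 and 2.18 on control 4. It was 0.39, -0.38, -0.68 and -0.71 on laser 1 to 4, and 0.32, -0.18, -0.44 and -1.38 on bur 1 to 4. Controls 2 and 4 thus stood above the 10 other arrays, while control 1 lay within and control 3 just below the range of the treated arrays. The highest control exceeded the lowest 20.1-fold, against 2.14-fold in the laser and 3.24-fold in the bur group.

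**Figure D1:**
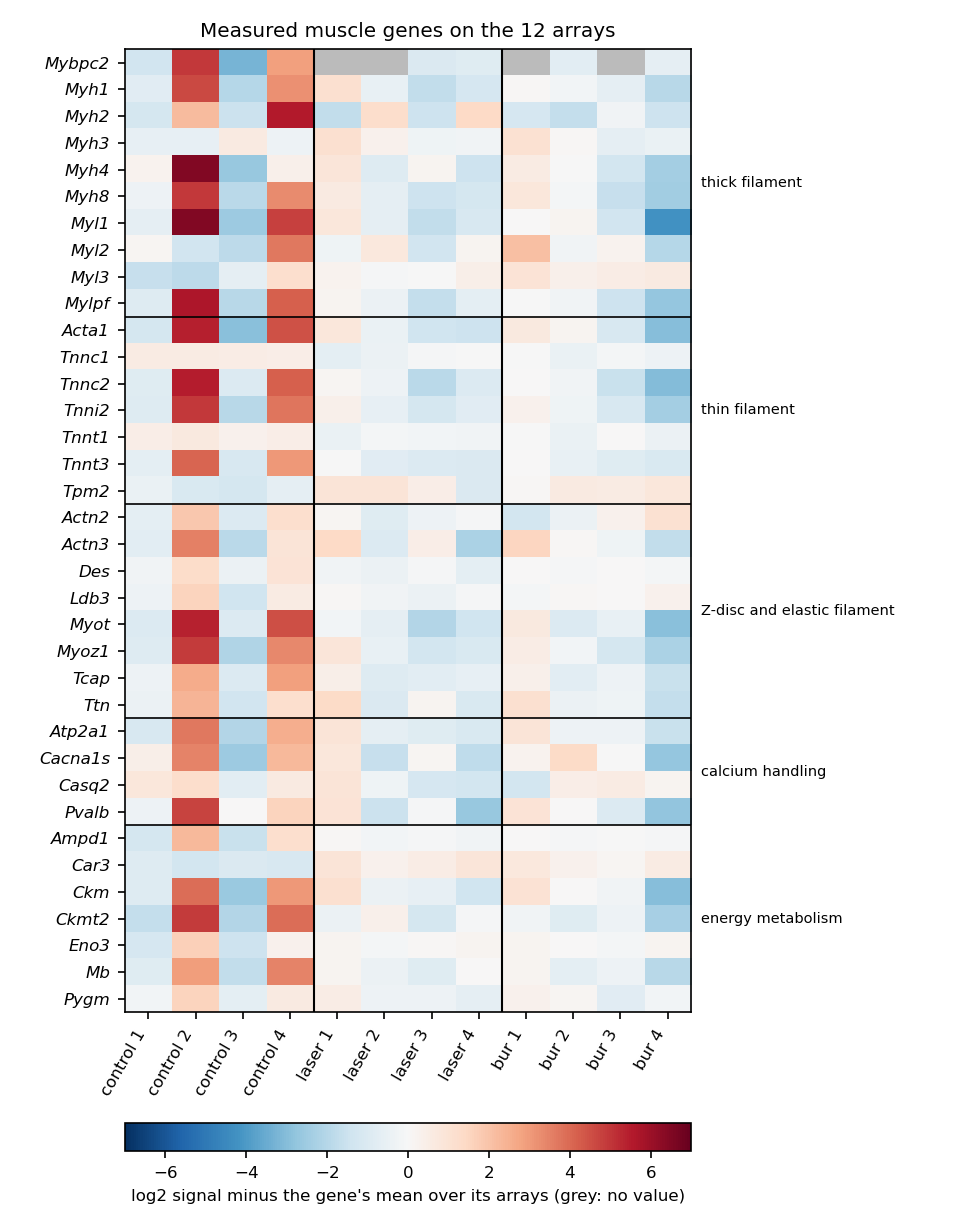
Colour gives the log2 signal of each of the 36 measured muscle genes (vertical axis, by role) on each of the 12 arrays (horizontal axis), minus that gene's mean; grey marks 4 arrays where Mybpc2 has no value. Most genes are red on controls 2 and 4 and blue on controls 1 and 3, and genes such as Car3, Tnnc1, Tnnt1, Tpm2, Myl3 and Myh3 do not show that pattern.

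Most of the listed genes shared a wide spread over the controls. Of the 35 genes with a value on every array, 25 (71.4%) ranged over more than 3 log2 units on the controls, against 1.83% of all genes, while Tnnc1, Car3, Tnnt1 and Tpm2 ranged 1.099-fold to 1.65-fold. The median gene of the list ranged 39.2-fold over the 4 control arrays, 3.62-fold over the laser and 4.32-fold over the bur arrays, against 1.43-fold, 1.55-fold and 1.65-fold for the median of all genes. For 11 genes the lowest control was not well above background; their ranges are given below as lower bounds, set against the dimmest probe well above background on that array. With those bounds the median control range was 34.2-fold. Among the 35 genes, 24 (68.6%) had both control 2 and control 4 above all 10 other arrays, a pattern found in 7.22% of all genes tested. Control 2 was the highest of the 12 arrays in 27 (77.1%) of them and in 14.8% of all genes. The order control 2, control 4, control 1, control 3 occurred in 22 (62.9%) and in 4.71% of all genes. The first principal component of the 35 genes held 83.9% of their variance over the 12 arrays and the second 6.78%. These are descriptions of 12 arrays with 4 in each group, and no test was made of them.

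The treated arrays also had an order, on a smaller scale. Laser 1 was the highest laser array in 27 of the 35 genes (77.1%, against 31.9% of all genes). Bur 1 was the highest bur array in 25 (71.4%, against 29.8%), and bur 4 was the lowest bur array in 22 (62.9%, against 19.7%). Laser 1 and bur 1 lay on 1 slide and bur 4 on another. The 4 control arrays lay together on a slide of their own, so the gap between controls 2 and 4 and controls 1 and 3 is a difference within 1 slide. Treated samples lay on the other slides, and treatment against control cannot be told apart from slide or scan.

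**Figure D2:**
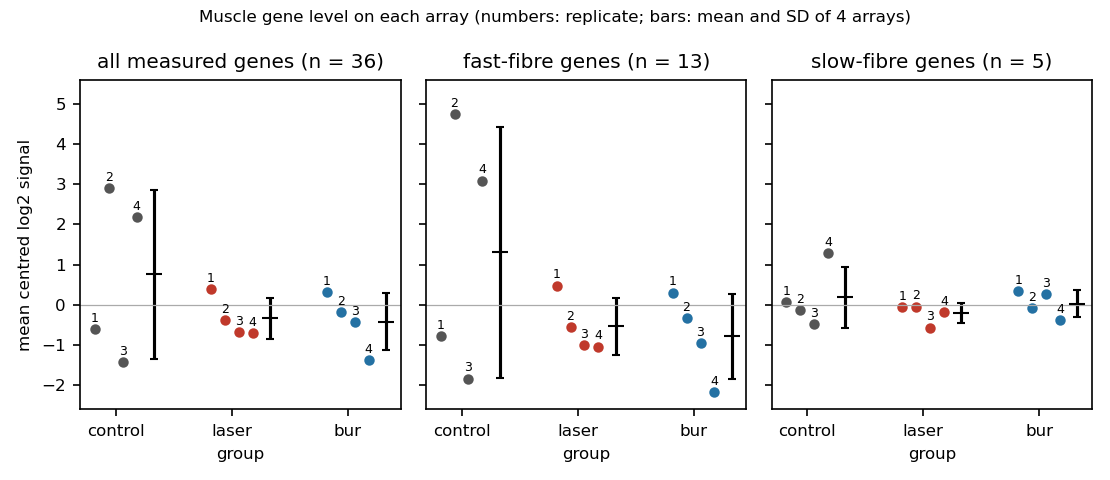
Each point is 1 array's mean centred log2 signal (vertical axis) over all 36 measured muscle genes, the 13 fast-fibre genes and the 5 slow-fibre genes, by group; the number beside a point is the replicate and the bar gives the mean and SD of 4 arrays. Controls 2 and 4 stand at 4.75 and 3.10 for the fast-fibre genes, and at 1.28 control 4 is the highest array for the slow-fibre mean, through Myl2 and Myl3.

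The mean of the fast-fibre genes ranged more widely over the controls than the mean of the slow-fibre genes. The mean centred log2 signal of the 13 fast-fibre genes was -0.78, 4.75, -1.84 and 3.10 on controls 1 to 4, a 96.5-fold range. It lay between -1.05 and 0.48 on the laser arrays and between -2.17 and 0.30 on the bur arrays. The 5 slow-fibre genes ranged 3.38-fold over the controls, with 0.07, -0.14, -0.48 and 1.28 on controls 1 to 4. The value on control 4 came from Myl2 and Myl3, which were dim on the other controls. Casq2, Tnnc1 and Tnnt1 had control 2 as their highest control, and the median of the 5 genes was 0.60 on control 2 and 0.62 on control 4. Both means take dim values as they are. Slow-fibre genes with different highest controls partly cancel in their mean, and Myl2 alone ranged at least 13.2-fold. The slow-fibre genes Mybpc1, Myh7 and Tnni1 and the fast-fibre gene Casq1 did not pass the filter and are in neither mean. In bulk tissue, fewer cells of a type and less RNA per cell cannot be told apart.

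The myosin heavy chains, the motor proteins of the thick filament, showed this by isoform. On the array's design build RGSCv3.4, the probes of Myh3, Myh2, Myh1, Myh4 and Myh8 lie in that order on the plus strand within chr10:53800570-54002298, and Myh3 and Myh8 are the embryonic and neonatal members of this cluster. Myh4 encodes the fastest myosin (type IIB). Its log2 signal was -3.86 on control 1, 2.37 on control 2, -6.81 on control 3 and -3.78 on control 4. Its lowest control was not well above background, so the control range was at least 162-fold. On laser 1 to 4 it was -3.26, -5.05, -3.94 and -5.57, and on bur 1 to 4 -3.56, -4.17, -5.42 and -6.53. Control 2 alone was high for Myh4, which was well above background on 7 arrays, 3 of them controls, so its lowest values are near the detection limit.

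Myh2, the myosin of fast oxidative fibres (type IIA), was highest on control 4. It read -6.68, -3.23, -6.95 and 0.12 on controls 1 to 4 and was well above background on controls 2 and 4 and laser 2 and 4 only. On 0 of 4 bur arrays was it well above background, so the control mean is given as at least 1.68-fold the bur mean. Myh1, of intermediate fast fibres (type IIX), read -1.15, 4.26, -2.33 and 2.88 on controls 1 to 4, between -2.09 and 0.77 on the laser arrays and between -2.31 and -0.24 on the bur arrays. Myh1 was high on controls 2 and 4 together. The 3 adult fast myosins therefore had different highest control arrays, control 2 for Myh1 and Myh4 and control 4 for Myh2.

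Among the developmental myosins, Myh8 followed the adult fast genes and Myh3 did not. Myh8 read 0.77, 6.10, -0.72 and 4.46 on controls 1 to 4, -0.29 to 1.76 on the laser arrays and -1.31 to 1.94 on the bur arrays. Myh3 read -4.40, -4.41, -3.21 and -4.18 on controls 1 to 4, and was highest on laser 1 (-2.71) and bur 1 (-2.75). Myh7, the slow and cardiac myosin, did not reach the filter and was well above background on 2 arrays, bur 1 and bur 2.

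Myosin light chains sit on the neck of the heavy chain. Mylpf, the fast regulatory light chain, was well above background on all 12 arrays. Its log2 signal was 0.40, 7.01, -0.63 and 5.51 on controls 1 to 4, 1.49, 0.92, -0.32 and 0.66 on laser 1 to 4, and 1.30, 1.09, -0.15 and -1.39 on bur 1 to 4. Controls 2 and 4 stood far above the other arrays and controls 1 and 3 within the treated range. Myl1, the fast essential light chain, ranged at least 398-fold over the controls. The slow chains differed from these: Myl2 was high on control 4 (-1.24) and not on control 2 (-6.30), and Myl3 read -6.29, -6.52, -5.30 and -3.48 on controls 1 to 4 and between -4.76 and -3.71 on the 8 treated arrays. Both slow chains were well above background on 1 control array, control 4. Mybpc2, the fast myosin-binding protein C, ranged at least 106-fold over the controls, and outlier marks removed its value on laser 1, laser 2, bur 1 and bur 3. Its slow counterpart Mybpc1 was well above background on 3 arrays, controls 2 and 4 and bur 2.

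The thin filament holds actin, tropomyosin and the 3 troponin subunits. Acta1, skeletal muscle actin, read -3.55, 3.07, -5.26 and 2.14 on controls 1 to 4, a range of at least 263.6-fold, -3.80 to -1.54 on the laser arrays and -5.31 to -1.68 on the bur arrays. The fast troponins behaved alike. Tnni2, the fast inhibitory subunit, read 0.45, 6.28, -0.60 and 5.07 on controls 1 to 4, and Tnnt3, the fast tropomyosin-binding subunit, read -0.30, 4.46, -0.76 and 3.42. Tnnc2, the fast calcium-binding subunit, read 0.38, 6.71, 0.27 and 5.39 on controls 1 to 4, 1.32, 0.84, -0.67 and 0.25 on laser 1 to 4, and 1.23, 0.94, -0.34 and -1.83 on bur 1 to 4. For all 4 of these genes controls 2 and 4 were above all other arrays.

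The slow troponins Tnnc1 and Tnnt1 were steady among the controls and lower on every treated array. They did not share the wide control range of the fast troponins, and whether their signal came from muscle was not tested. Tnnc1, the calcium-binding subunit of slow and cardiac muscle, read 0.96, 0.96, 0.88 and 0.83 on controls 1 to 4, the narrowest control range of any measured member at 1.099-fold. It read -0.31, -0.03, 0.27 and 0.35 on laser 1 to 4, and 0.35, -0.12, 0.25 and 0.00 on bur 1 to 4. Every treated array lay below every control array. Tnnt1, the slow tropomyosin-binding subunit, read 0.24, 0.48, 0.13 and 0.24 on controls 1 to 4. It read -0.65, -0.32, -0.39 and -0.43 on laser 1 to 4, and -0.25, -0.66, -0.15 and -0.62 on bur 1 to 4, again with no overlap with the controls. Tnni1, the slow inhibitory subunit, was well above background on control 4 only and was not measured by the rule.

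Tnnc1 and Tnnc2 are close relatives, so their probes are shown to let a reader see how far the array separates them. Aligned without gaps they overlap by 59 bases, match at 48 and differ at 11, and capitals mark the bases that differ. The Tnnc1 probe shown is its second one, at chr16:6642153-6642212 on the plus strand, and the Tnnc2 probe lies at chr3:155807460-155807519 on the minus strand of RGSCv3.4, both written as the array design gives them.
Tnnc1 probe 2: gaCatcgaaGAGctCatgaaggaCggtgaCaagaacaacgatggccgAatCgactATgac
Tnnc2 probe: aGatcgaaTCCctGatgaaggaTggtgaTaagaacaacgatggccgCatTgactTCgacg
Despite this likeness the probes read differently. The second Tnnc1 probe gave 0.34, 0.66, 0.38 and 0.54 on controls 1 to 4, with no gap of the kind seen for Tnnc2. Its values on the treated arrays, -0.89 to -0.17, were all below the controls, as for the first Tnnc1 probe.

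Tpm2, beta-tropomyosin, is made in skeletal muscle and, from other exons, in smooth muscle and fibroblasts. It had 3 probes that passed the filter, and they did not move together. The probe used, with the highest mean signal, read 2.06, 1.48, 1.34 and 1.95 on controls 1 to 4, 3.44, 3.47, 3.03 and 1.53 on laser 1 to 4, and 2.64, 3.17, 3.12 and 3.35 on bur 1 to 4. All bur arrays and 3 of 4 laser arrays were above the controls, and laser 4 lay among them. The second probe read 1.04, 1.48, 0.43 and 1.35 on controls 1 to 4 and -0.56 on laser 4, against 1.19 to 1.75 on the other treated arrays. The third read -0.70, 2.18, -1.95 and 1.29 on controls 1 to 4 and -2.05 on laser 4, against -0.47 to 0.21 on the others. Over the 12 arrays the correlation with the mean of the other muscle genes was -0.30 for the probe used, 0.28 for the second and 0.85 for the third.
The 3 probes are printed to show that they read different stretches of the gene on chromosome 5, minus strand of RGSCv3.4. The used probe spans chr5:59997963-59998563, which is 601 bases of genome for 60 bases of probe, the third lies inside that span at chr5:59998176-59998235, and the second lies at chr5:60002277-60002336.
Tpm2 probe 1 (used): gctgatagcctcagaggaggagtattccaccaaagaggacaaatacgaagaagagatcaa
Tpm2 probe 2: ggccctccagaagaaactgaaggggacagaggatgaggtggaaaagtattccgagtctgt
Tpm2 probe 3: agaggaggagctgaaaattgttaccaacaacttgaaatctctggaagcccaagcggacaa
The span of probe 1 on the genome is longer than the probe, so its bases come from separate stretches. Probe 3, inside that span, was designed on another transcript record of Tpm2 than probes 1 and 2. Probe 1 was higher after laser and bur, while probe 3 differed by -0.75 and -0.43 and did not pass (limma, given below). The rise is thus one of transcripts that probe 1 reads and was not seen with probe 3. Which exons the probes read was not looked up. Smooth muscle genes are given beside probe 1 because smooth muscle makes this tropomyosin too. The mean centred log2 signal of 11 smooth muscle genes lay between -0.97 and -0.03 on the controls, at 0.18 to 0.58 on laser 1 to 3, at -0.91 on laser 4 and at -0.21 to 0.77 on the bur arrays. Of the 11, 2 were higher after laser and 3 after bur (limma, adjusted p under 0.05), against 32.2% and 32.7% of all genes tested. Their part in the Tpm2 result was not tested.

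**Figure D3:**
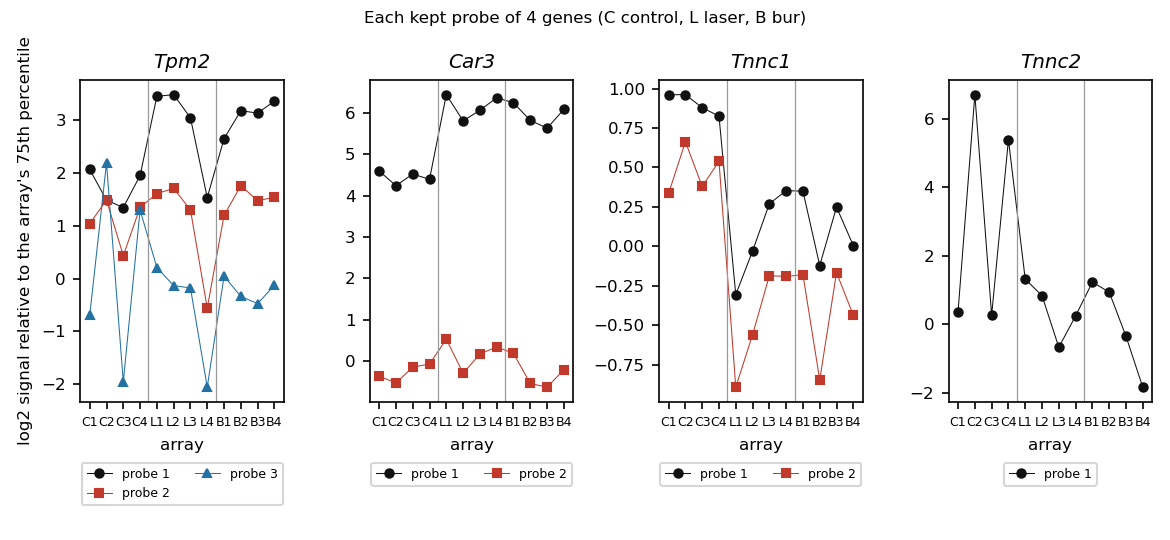
Log2 signal relative to the array's 75th percentile (vertical axis) of each kept probe of Tpm2, Car3, Tnnc1 and Tnnc2 on the 12 arrays (horizontal axis; C control, L laser, B bur; probe 1 is the probe used). Tpm2 probe 3 peaks on controls 2 and 4 like Tnnc2 while probe 1 does not, and both Tnnc1 probes are highest on the controls.

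Z-disc and elastic filament genes anchor and align the filaments. Of the 8 measured, Actn3 is the alpha-actinin of fast fibres. It read -0.43, 3.80, -1.56 and 1.20 on controls 1 to 4, 1.72, -0.68, 0.74 and -1.89 on laser 1 to 4, and 1.79, 0.36, -0.03 and -1.40 on bur 1 to 4. Control 2 stood apart, and laser 1 and bur 1 exceeded control 4. Actn2, its relative in all fibres, ranged at least 4.92-fold over the controls. Myoz1, a calcineurin-binding protein of fast fibres, ranged 125.6-fold, and Myot, a protein of the Z-disc, ranged at least 70.2-fold and was well above background on 5 arrays. Tcap, which caps titin, ranged 14.1-fold with control 4 highest (3.05), and titin itself, Ttn, ranged 13.02-fold. Ldb3 ranged 7.97-fold. Des, the intermediate filament of all muscle, ranged 3.29-fold, from -1.11 on control 3 to 0.61 on control 2. 

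Calcium-handling genes load and release the calcium store. Atp2a1 is the calcium pump of fast fibres. It read -0.07, 4.75, -1.03 and 3.58 on controls 1 to 4, 1.93, 0.43, 0.20 and -0.04 on laser 1 to 4, and 1.96, 0.67, 0.67 and -0.54 on bur 1 to 4. Controls 2 and 4 were above all other arrays. Pvalb, the calcium buffer of fast fibres, read -0.49, 4.61, -0.09 and 1.42 on controls 1 to 4, so control 2 was far above control 4. Cacna1s, the voltage sensor, ranged at least 18.46-fold. Casq2, the calsequestrin of slow and cardiac muscle, ranged at least 2.73-fold, and Casq1, that of fast muscle, was well above background on controls 2 and 4 and laser 1 only. Ryr1, the calcium release channel, and Neb, the thin filament ruler nebulin, have no probe under those symbols.

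Energy genes of muscle other than Car3 all had controls 2 and 4 above the 10 other arrays. Ckm, muscle creatine kinase, read -0.22, 4.58, -1.88 and 3.74 on controls 1 to 4, 0.11 to 1.81 on laser 1 to 3 and -0.68 on laser 4, with -2.28 on bur 4. Mb, myoglobin, read 0.33, 4.11, -0.54 and 4.67 on controls 1 to 4, with control 4 highest. Ckmt2, the mitochondrial creatine kinase, ranged 121.1-fold. Pygm, muscle glycogen phosphorylase, ranged 4.86-fold, Ampd1, the AMP deaminase of muscle, 14.6-fold, and Eno3, muscle enolase, 8.61-fold. Over the treated arrays Eno3 and Ampd1 hardly varied: Eno3 ranged 1.25-fold over the laser and 1.27-fold over the bur arrays, and Ampd1 1.27-fold and 1.095-fold. Trim63, a ubiquitin ligase of muscle wasting, was well above background on controls 2 and 4 only and was not measured by the rule.

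Car3, carbonic anhydrase 3, is abundant in slow fibres and in adipocytes. The used probe read 4.59, 4.24, 4.52 and 4.39 on controls 1 to 4, 6.43, 5.80, 6.06 and 6.36 on laser 1 to 4, and 6.24, 5.81, 5.63 and 6.08 on bur 1 to 4. Every treated array was above every control array. A second Car3 probe read -0.36, -0.52, -0.14 and -0.06 on controls 1 to 4, -0.29 to 0.54 on the laser arrays and -0.62 to 0.19 on the bur arrays, so its groups overlapped. The mean centred log2 signal of 9 adipocyte genes is given beside it. That mean was 0.94 to 1.66 on the controls, -1.20 to -0.44 on the laser arrays and -1.30 to 0.04 on the bur arrays. Which cells gave the Car3 signal was not tested.

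How closely each gene followed the rest is given as Pearson's r over the 12 arrays with the mean of the other members, a description in which the genes share arrays and the 2 high controls. Of the 36 genes 16 had an r of 0.9 or more and 24 an r of 0.8 or more. The highest were Acta1 and Myoz1 at 0.995, Tnni2 at 0.993 and Myh1 at 0.988. Without controls 2 and 4, the arrays farthest from the median, r was 0.986, 0.976, 0.966 and 0.935 for these genes. It fell further for others, to 0.31 for Des from 0.89, to 0.41 for Ldb3 from 0.79, to -0.09 for Myh2 from 0.67 and to -0.31 for Actn2 from 0.60. It was 4 genes that had an r below 0: Car3 (-0.47), Tpm2 (-0.30), Myl3 (-0.16) and Myh3 (-0.13). Tnnc1 (0.34), Myl2 (0.41) and Casq2 (0.48) were also under 0.5, and Tnnt1 stood at 0.52. Without controls 2 and 4, r was -0.48 for Tnnc1, -0.32 for Tnnt1, 0.11 for Casq2 and 0.73 for Myl2. It was then 0.29 to 0.51 for the 4 genes below 0. Of the 8 genes just named, 5 are the measured slow-fibre genes.

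Genes outside the list were ranked by the same r. Of the 20 with the highest r, 14 have a gene symbol of their own, and 7 are on a list of 50 further skeletal muscle genes. They include Apobec2, a muscle member of the cytidine deaminase family (r = 0.983), Cacng1, a subunit of the muscle calcium channel (0.978), Sypl2, of the triad junction (0.960), Fitm1 (0.949), Abra (0.947), Pgam2, muscle phosphoglycerate mutase (0.944), and Cox8b, a cytochrome oxidase subunit (0.934). Smtnl1, Dhrs7c, Rbm24, Smtnl2, Klhl41 and Art1 followed, at 0.933 to 0.888. AI043820 (0.991) and 5 names that are only transcript or locus identifiers were also among the 20.

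The further list as a whole shared the pattern in part. Its 39 measured genes had a mean centred log2 signal of -0.71, 1.04, -1.19 and 0.73 on controls 1 to 4. Of the 38 with a value on every array, 16 (42.1%) had controls 2 and 4 above all 10 others. The mean of the 9 measured genes of muscle stem cells and muscle formation ranged 1.14-fold over the controls and did not share it. For the 5 measured genes of the neuromuscular junction the mean ranged 1.295-fold over the controls. Genes with different highest controls can partly cancel in such means.

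**Figure D4:**
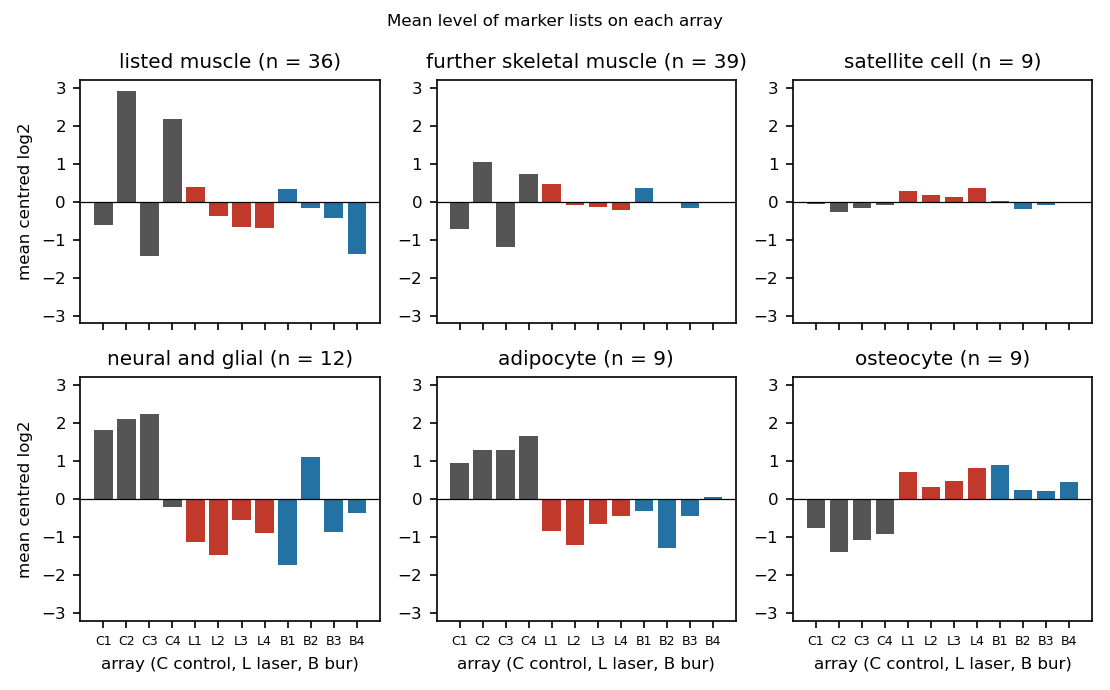
Bars give the mean centred log2 signal (vertical axis) of the listed muscle genes, 39 further muscle genes, 9 satellite cell genes, 12 neural and glial genes, 9 adipocyte genes and 9 osteocyte genes on the 12 arrays (C control, L laser, B bur). The 2 muscle lists peak on controls 2 and 4, while adipocyte genes are high and osteocyte genes low on all 4 controls.

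Among the marker lists of other tissues, erythroid genes also had controls 2 and 4 highest, over a 1.75-fold control range. The 12 neural and glial genes stood at 1.83, 2.11, 2.24 and -0.21 on controls 1 to 4, between -1.48 and -0.56 on the laser arrays, and at -1.74, 1.103, -0.88 and -0.37 on bur 1 to 4. Of these 12 genes 7 were lower in each treated group (limma, adjusted p under 0.05), against 17.6% of all genes after laser and 18.3% after bur. The 9 adipocyte genes were 0.94, 1.28, 1.29 and 1.66 on controls 1 to 4, and 7 of 9 were lower in each treated group. The 9 osteocyte genes stood between -1.38 and -0.75 on the controls and between 0.22 and 0.89 on the treated arrays, and the 8 erythroid genes between 1.47 and 2.27 on the controls and between -3.56 and 0.50 on the treated arrays. Adipocyte and erythroid means were thus higher, and osteocyte means lower, on every control than on any treated array, while neural means overlapped through control 4 and bur 2. The part of these differences in the muscle results was not tested.

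Laser-ablated bone was set against uncut bone to see which muscle genes differed 6 h after surgery. Car3 and Tpm2 rose, Tnnc1 and Tnnt1 fell, and the other 32 muscle genes did not pass the test. Those 4 called genes make up 4 of 36, while 49.8% of all genes tested passed in this comparison (32.2% higher, 17.6% lower). Car3 was higher by 1.73 ± 0.18 on the log2 scale (SE, 4 against 4 arrays; limma adjusted p = 0.000116), or 3.31-fold. Tpm2 was higher by 1.16 ± 0.39 (limma adjusted p = 0.0278). That Tpm2 call was lost in 10 of 22 alternatives, among them leaving out control 2 (limma adjusted p = 0.068), control 3 (0.072), laser 1 (0.0799), laser 2 (0.0777) or laser 3 (0.0595), and slide as a random effect (0.0754). Tnnc1 differed by -0.84 ± 0.16 (limma adjusted p = 0.00204) and Tnnt1 by -0.72 ± 0.15 (limma adjusted p = 0.00264), or 1.78-fold and 1.65-fold lower. These were also the genes whose groups did not overlap, except Tpm2, against 31% of all genes not overlapping upwards and 17.7% downwards.

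Bur-drilled bone against uncut bone gave calls for those 4 genes, against 51% of all genes (32.7% higher, 18.3% lower). Car3 was higher by 1.503 ± 0.178 (SE, 4 against 4 arrays; limma adjusted p = 0.000231) and Tpm2 by 1.37 ± 0.39 (limma adjusted p = 0.0136). Tnnc1 differed by -0.79 ± 0.16 (limma adjusted p = 0.00279) and Tnnt1 by -0.69 ± 0.15 (limma adjusted p = 0.00326). The groups of all 4 did not overlap, as for 30.4% of all genes upwards and 15.6% downwards. Both comparisons use the same 4 control arrays, so they are not independent of each other.

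Other probes bear on those calls. Both Tnnc1 probes were lower, the second by -0.94 ± 0.20 after laser and -0.89 ± 0.20 after bur (limma adjusted p = 0.00323 and 0.00421, over all probes kept). The second Car3 probe differed by 0.46 ± 0.22 after laser and -0.02 ± 0.22 after bur and did not pass (limma adjusted p = 0.0992 and 0.943). The second Tpm2 probe differed by -0.06 ± 0.44 and 0.41 ± 0.44, and the third by -0.75 ± 0.79 and -0.43 ± 0.79, none past the threshold (limma adjusted p = 0.915, 0.446, 0.451 and 0.662). In these fits the Tpm2 and Car3 rises therefore rest on 1 probe each, and the Tnnc1 fall on 2. Tnnt1 has 1 probe.

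The remaining genes leaned lower without passing. Of the 36 genes 31 had a negative difference in each control comparison, and the median was -1.20 for laser and -1.30 for bur, against 0.21 and 0.23 over all genes. All 13 fast-fibre genes were negative in each, with medians of -1.84 and -2.09, and 0 of 13 passed (limma). The largest of the 36 were Myot at -3.07 ± 1.41 after laser (limma adjusted p = 0.089) and Myl1 at -3.35 ± 1.79 after bur (limma adjusted p = 0.136). Tnnc2 differed by -2.75 ± 1.37 and -3.18 ± 1.37 (limma adjusted p = 0.115 and 0.0724), a size of 6.73-fold and 9.09-fold. The error follows from the controls: the 95% interval of Acta1 after laser ran from -5.77 to 1.61, and that of Mylpf from -5.64 to 0.88. At an unadjusted p under 0.05 there were 5 genes after laser and 6 after bur, which adds Des (-0.76 ± 0.34) after laser, and Tnnc2 and Myl3 (1.34 ± 0.53) after bur. Among the controls, Myl3 was well above background on control 4 only.

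**Figure D5:**
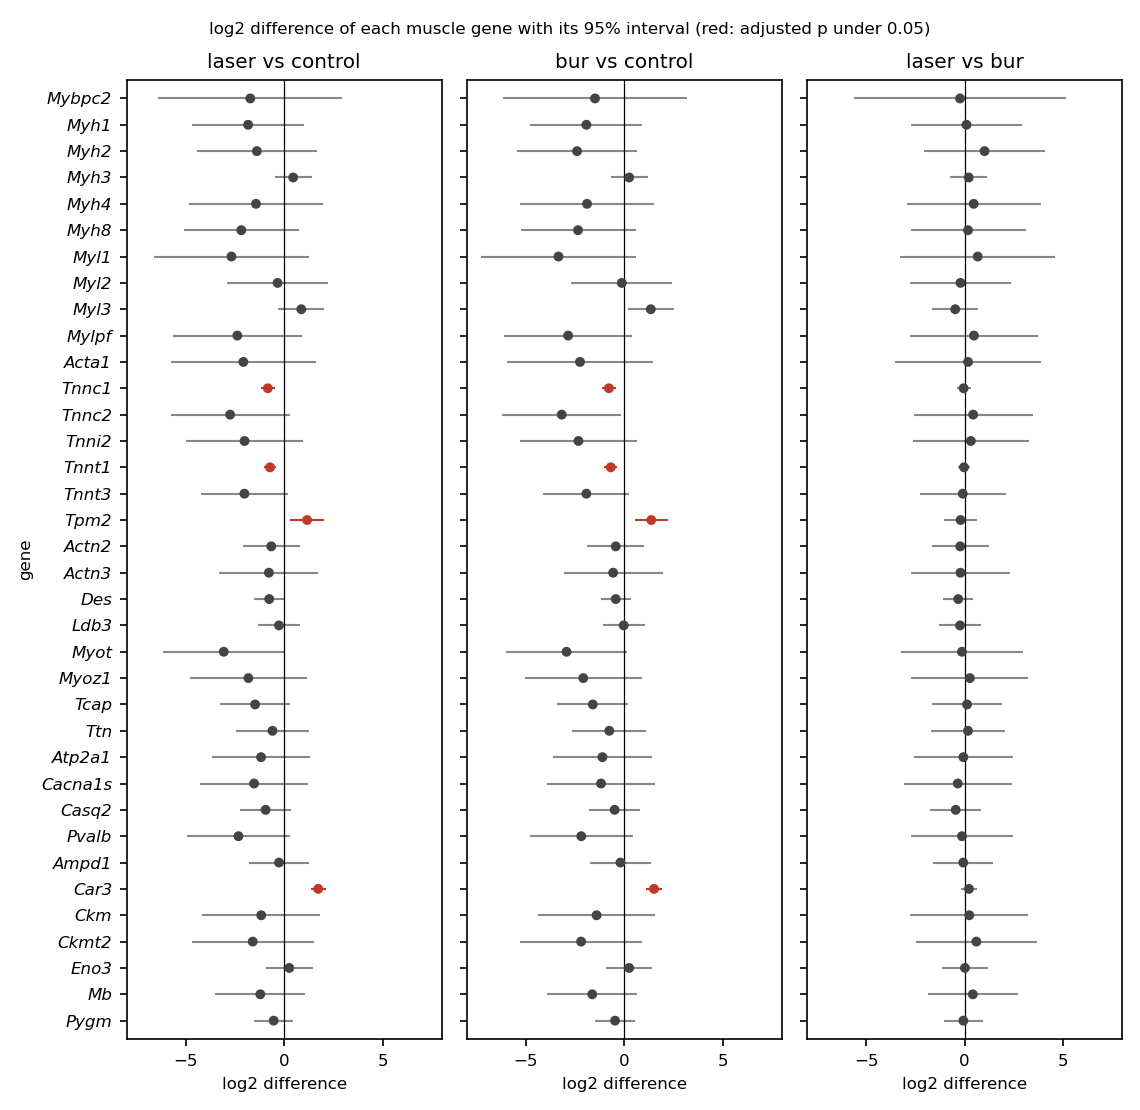
Log2 difference (horizontal axis) of each measured muscle gene (vertical axis) for laser against control, bur against control and laser against bur; points are limma estimates and lines their 95% intervals, red where the adjusted p is under 0.05. Most points in the control comparisons lie left of 0 with intervals that cross it, and no gene is red for laser against bur.

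By role the counts were as follows, and they are to be read against the shares of all genes given above. Of 7 thin filament genes 1 rose and 2 fell in each control comparison, with 6 negative. Of 10 thick filament genes 0 passed and 8 were negative, with medians of -1.58 and -1.92. All 8 Z-disc and elastic filament genes and all 4 calcium-handling genes were negative and 0 passed (limma). Unadjusted p was under 0.05 for 1 gene of the thick filament after bur, 1 of the Z-disc group after laser and 0 of calcium handling. Of 7 energy genes 1 rose, Car3, and 5 were negative.

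The negative lean depended on which controls were kept. With controls 2 and 4 left out, arrays picked after their values were seen, the median difference was 0.81 after laser and 0.58 after bur, and 25 of 36 genes turned from lower to higher in each. With these 2 gone, 6 muscle genes passed after laser and 7 after bur, against 29.4% and 28.5% of all genes in the same fits: Car3, Ampd1, Eno3 and Myl3 higher and Tnnc1 and Tnnt1 lower in both, and Ldb3 higher after bur, while Tpm2 no longer passed in either. Eno3 was then higher by 1.39 ± 0.17 after laser and 1.37 ± 0.17 after bur, and Ampd1 by 1.30 ± 0.16 and 1.37 ± 0.16. Myl3 was not well above background on either control left in this fit, so its difference is taken against values near the detection limit. With all arrays kept and normexp background correction, Myl3 differed by -0.10 in each control comparison. Without control 3 alone the count was 9 after laser and 13 after bur (42.2% and 43.5% of all genes), among them Tnnc2, Tnnt3, Tcap, Myh8 and Myot lower, and without control 1 it was 8 after laser and 6 after bur (46.5% and 48.1%). Car3, Tnnc1 and Tnnt1 passed in the same direction in all of these fits.

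Between laser and bur bone no muscle gene passed the test. In that comparison 0 of 36 genes passed and 0 had an unadjusted p under 0.05 (limma), against 0.00435% of all genes called, which is 1 gene. The median difference was -0.0046, with 18 genes higher after laser and 18 higher after bur. The estimates for the called genes were 0.22 for Car3 (95% interval -0.17 to 0.62), -0.20 for Tpm2 (-1.05 to 0.65), -0.05 for Tnnc1 (-0.40 to 0.31) and -0.03 for Tnnt1 (-0.35 to 0.30). For the genes that vary most the interval was wide, at -3.51 to 3.86 for Acta1 and -2.95 to 3.88 for Myh4. The fit takes 1 spread over all 3 groups, so these widths include that of the controls. For Acta1 the SD was 4.12 on the controls, 1.05 on the laser and 1.62 on the bur arrays. For Myh4 it was 3.86, 1.05 and 1.33. With only laser and bur in the fit, again 0 muscle genes passed (limma). Only Mybpc2 had groups that did not overlap, on 2 arrays each, against 2.06% of all genes upwards and 1.52% downwards. Within slides, the median of laser minus bur was -0.07 on slide 2 and 0.29 on slide 3, with 2 arrays of each kind on a slide.

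Of the 39 genes of the further list, 9 were higher and 4 lower after laser, against 32.2% and 17.6% of all genes. After bur 9 were higher and 2 lower, against 32.7% and 18.3%. The genes named here were chosen after their values were seen. Sln, sarcolipin, an inhibitor of the calcium pump, was higher by 2.92 ± 0.53 after laser and 2.95 ± 0.53 after bur, and Sgca, alpha-sarcoglycan, by 2.33 ± 0.23 and 2.32 ± 0.23. Actc1, cardiac actin, was higher by 1.497 ± 0.31 and 1.41 ± 0.31, and Slc2a4, the insulin-responsive glucose transporter, by 1.76 ± 0.32 and 1.57 ± 0.32. Mylk2, skeletal myosin light chain kinase, differed by -1.93 ± 0.52 and -2.18 ± 0.52, and Stac3, of the calcium channel complex, by -2.45 ± 0.78 and -2.22 ± 0.78. The largest limma adjusted p of these 6 genes was 0.034. Some of the 39 are also expressed outside skeletal muscle, in fat, smooth muscle or bone.

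Promoter sequence is shown because so many members moved together from array to array. For 29 of the 36 genes RefSeq's table for the GRCr8 assembly holds the bases before the gene's start, and 250 of them were searched on both strands. The E-box CAGCTG, 1 of the forms that the myogenic MyoD family binds, was in 8 of 29 (27.6%), against 12% of 33469 promoters of all genes. The broader CANNTG, which includes CAGCTG, was in 79.3% against 65.5%, the MCAT element CATTCC in 24.1% against 12.1%, and TATAAA in 37.9% against 12.9%. A CArG box was in 4 (13.8% against 1.5%) and a MEF2 box in 2 (6.9% against 0.523%). A match is a description of these letters and not a site of binding.
The 3 promoters below are those of Acta1 and Ckm, which followed controls 2 and 4, and of Tnnt1, which did not, each 250 bases upstream and 5′ to 3′. Capitals mark CAGCTG, and in Acta1 also the CArG box. Acta1 is at chr19:68784195-68784444 on the minus strand, Ckm at chr1:88189211-88189460 on the plus strand and Tnnt1 at chr1:78348785-78349034 on the plus strand of GRCr8.
Acta1: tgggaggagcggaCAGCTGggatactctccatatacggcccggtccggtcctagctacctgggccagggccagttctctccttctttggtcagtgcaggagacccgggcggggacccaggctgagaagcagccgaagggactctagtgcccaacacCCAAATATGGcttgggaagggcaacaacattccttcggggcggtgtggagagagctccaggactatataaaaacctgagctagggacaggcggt
Ckm: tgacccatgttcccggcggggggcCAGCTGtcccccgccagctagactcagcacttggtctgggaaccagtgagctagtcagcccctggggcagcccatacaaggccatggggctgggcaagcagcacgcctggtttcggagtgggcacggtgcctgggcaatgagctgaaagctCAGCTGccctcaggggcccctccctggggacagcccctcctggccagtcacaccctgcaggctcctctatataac
Tnnt1: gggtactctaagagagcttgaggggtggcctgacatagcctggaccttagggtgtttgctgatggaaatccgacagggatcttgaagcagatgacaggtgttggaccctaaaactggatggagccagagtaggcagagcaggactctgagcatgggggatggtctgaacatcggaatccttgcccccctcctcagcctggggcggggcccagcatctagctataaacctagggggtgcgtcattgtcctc
Ckm holds CAGCTG at 2 places, Acta1 at 1 and Tnnt1 at 0 in this window, which says nothing of the rest of each gene. These 3 were picked after their values were seen, and the members as a whole do not divide that way: CAGCTG was in 4 of 12 promoters of members with an r of 0.9 or more and in 4 of 17 of the others.

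The authors' deposited tables of their own comparisons hold 38 probes of 34 of the listed genes. At an adjusted p under 0.05 in the authors' deposited tables, 5 of these probes passed for laser against control, 4 for bur against control and 0 for laser against bur. The second Car3 probe was among those that passed for laser against control (log2 difference 0.47). It did not pass for bur against control (0.03). Over all probes of the authors' deposited tables the counts were 12609 (50.6%), 12738 (51.1%) and 1.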

How the data were processed

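Spot intensity values came from scanner files, 1 per array, that name Agilent Feature Extraction as the program (version 11.0.1.1, per the file headers); its processed signal is background-subtracted. Other deposited files hold normalized log2 values of every array, and the authors' comparisons as log2 fold changes with p-values. The sources used here do not state the model behind those comparisons. From 200 ng of total RNA per sample, per the labels, 62976 spots were read per array, and 67.8% to 73.7% of non-control spots were well above background.

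The processed signal was log2 transformed, control spots and outlier marks were left out, spots of a probe were averaged, and the 75th percentile of the array was subtracted. Probes well above background on at least 4 arrays were kept, 1 per gene, giving 22990 genes. All 12 arrays entered 1 limma fit (limma 3.58.1, R 4.3.3; lmFit and eBayes) with 1 coefficient for each group. Two-sided p-values were adjusted by Benjamini and Hochberg's method across the genes tested, and 0.05 was the threshold. Scripts were tested on simulated data. Errors are limma's standard errors. Scaling to a percentile hides a change shared by most genes.

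Samples were grouped by title. The members and all lists were chosen with earlier results of these data known. Every array's value is given for called members, for the member with the highest mean probe signal in each role and for the widest and narrowest control range, and some further members were picked after their values were seen. Genes outside the list are the 20 with the highest r, of which 1 is not reported here, and genes of the further list were picked from those that passed. Probe positions are as the scanner files list them (RGSCv3.4). Alternatives covered normalization (quantile, another percentile, normexp with offset 50, median centring, the authors' deposited table), filters, several probes, groups in the fit, replicate or slide as a block, array weights, an intensity trend and left-out arrays. Slide was a fixed block between laser and bur and a random effect in the control comparisons. Replicate numbers are in the titles of all groups.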

Additional observations from a re-analysis of the deposited data

Results flagged for a closer look

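In 175 sets of 4 arrays, for each member, role, fibre class and marker list by group, the gap of an extreme array to its nearest neighbour was compared with the range of the set, and 2 sets stood out. Chance gives about 1 in 20 such sets, so 2 of 175 is no more than chance gives. The mean centred log2 signal of the neural and glial genes was -0.21 on control 4, against 1.83 to 2.24 on the other controls. That of the erythroid genes was -3.56 on laser 1, against -0.32 to 0.23 on the other laser arrays. No muscle gene and no role or fibre class stood out by this measure. The measure looks for 1 array apart from all others of its set. Where controls 2 and 4 were both far above the other controls, the nearest neighbour of the higher was the other high control. The measure therefore cannot flag that pattern, and for those sets its result says nothing about the spread over the controls.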

How the results depend on the processing

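In the settings that kept all arrays, 3 to 4 muscle genes were called after laser, 3 to 5 after bur and 0 between laser and bur. The shares of all genes called in the main fit were 49.8%, 51% and 0.00435%. Leaving out 1 array gave 3 to 9, 4 to 13 and 0 to 0. Of all 22990 genes those fits called 9185 to 11235 after laser and 9580 to 11852 after bur. Leaving out controls 2 and 4 gave 6 after laser and 7 after bur, against 29.4% and 28.5% of all genes. The median difference then became 0.81 after laser and 0.58 after bur, against -2.14 to -0.59 and -2.31 to -0.51 with 1 array left out. Over all genes, laser against bur had 5 calls with normexp, 0 with the mean of a gene's probes, 0 with only the 2 groups in the fit, 10 with slide as a block, 2 with an intensity trend and 0 to 1 with 1 array left out. Car3, Tnnc1 and Tnnt1 passed in all 22 alternatives of each control comparison, and Tpm2 in 12 after laser and 19 after bur. Slide entered these control comparisons as a random effect. As the controls have a slide of their own, that fit cannot tell slide from treatment. Tpm2 was 0.12 after laser and 0.45 after bur as the mean of its probes. The authors' deposited table lacks the probe used here, and its values of 0.41 and 0.75 are those of the second Tpm2 probe.

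With the replicate number as a block 4 muscle genes were called after laser, 5 after bur, which adds Myl3, and 0 between laser and bur. The same-numbered arrays of the control comparisons had deviations correlated at 0.085 to 0.388 for laser and 0.094 to 0.264 for bur, and 0.045 to 0.578 between laser and bur, where 3 of 4 were over 0.1. All same-numbered values were positive. Arrays of unlike number correlated at -0.31 to 0.194 for laser against control, -0.232 to 0.132 for bur against control and -0.487 to 0.206 between laser and bur. The labels do not say that a number pairs samples, and not every same-numbered pair was over 0.1 in any comparison. The main fit therefore left the samples unpaired, but these values do not settle whether the numbers pair them.

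Signs turned for genes that did not pass. Myh3 became -0.046 after bur with quantile normalization, and with normexp -0.016 after laser and -0.16 after bur. Myl3 became -0.10 after laser and -0.10 after bur with normexp. Mybpc2 became 2.38 and 0.26 in the authors' deposited table, and Ldb3 0.10 after bur with array weights. With 1 array left out, the ranges were Eno3 -0.17 to 0.87 after laser and -0.19 to 0.85 after bur, Actn3 -1.55 to 0.24 and -1.35 to 0.44, Ampd1 -0.85 to 0.44 and -0.78 to 0.51, Ldb3 -0.77 to 0.23 and -0.54 to 0.46, Myl2 -1.01 to 0.84 and -0.83 to 1.05. After laser alone Myh4 ran from -2.70 to 0.36, Myh2 from -2.31 to 0.046 and Ttn from -1.20 to 0.038. After bur alone Actn2 ran from -0.88 to 0.071 and Myh3 from -0.11 to 0.52. Apart from fits with fewer arrays, the cause of these changes was not tested. The dimmest members, well above background on 4 arrays, are limited by signal over background.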
